A study of Mus musculus with 8 samples.

Results

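The miR-34 family is a set of microRNAs (miRNAs) that the tumour suppressor p53 induces. It was measured here in CD34+/CD105- cells of the renal artery of mice that had sham surgery or ischemia/reperfusion of the kidneys. The members are the assays whose name, without species prefix and catalogue number, is miR-34a, miR-34b-3p, miR-34b-5p or miR-34c. This rule found 4 of the 750 distinct miRNA assays, 1 mouse assay for each name. A further 2 assays of the family lie outside the rule and are described beside it. They are miR-34b, with no arm in its name, and miR-34c#, where # marks the arm formerly taken for the passenger strand.

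Few member wells gave a signal, 7 of 32 across both groups. They were 6 of 16 in sham mice and 1 of 16 in ischemia/reperfusion mice, where on average 16.9% and 12.0% of all 750 miRNA assays were detected. Of the 6 sham wells, 3 came from sham mouse 4. miR-34b-3p gave a signal in 4 of 4 sham but 1 of 4 ischemia/reperfusion mice, miR-34a and miR-34c in sham mouse 4, and miR-34b-5p in no mouse.

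p53 is a transcription factor activated by DNA damage, hypoxia and other stress. It binds near the genes for miR-34a and for miR-34b and miR-34c, and raises their transcription. The mature miRNAs pair through their seed with messenger RNAs for cell cycle and survival proteins, among them Bcl2, Met and Sirt1, and lower their output. In endothelial cells miR-34a is known for promoting senescence. miR-34b and miR-34c are made from 1 shared transcript and are abundant in multiciliated epithelium and testis, together with the related miR-449 miRNAs.

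Sequences show which assays could report on the same targets, because miRNAs with the same seed (bases 2 to 8, in capitals) share target sites. RefSeq (build GRCm38.p6) supplied them, with 6 of 7 mature names looked for matched, and miR-34c-5p is named only. The assays' own probe sequences are not stated. The miR-34a, miR-34c and miR-449 assays were taken to read the 5p arm and miR-34c# the 3p arm, which was not checked. Which arm the assay named miR-34b reads is not known.
miR-34a-5p, chr4:150068473-150068494, + strand: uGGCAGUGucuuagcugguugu
miR-34b-5p, chr9:51103610-51103632, - strand: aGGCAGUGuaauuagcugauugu
miR-34b-3p, chr9:51103574-51103595, - strand: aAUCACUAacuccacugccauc
miR-34c-3p, chr9:51103044-51103065, - strand: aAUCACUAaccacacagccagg
miR-449a-5p, chr13:113037549-113037570, + strand: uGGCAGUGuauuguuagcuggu

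The matched sequences held a pair of seeds. miR-34a-5p and miR-34b-5p carried GGCAGUG, which among the 1679 mature mouse miRNAs of that table was also found in miR-449a-5p and miR-449c-5p. miR-34b-3p and miR-34c-3p carried AUCACUA, which no other listed mature miRNA had. The 3p arms were identical at 17 of 22 positions and differed by U11C, C12A, U16A, U21G and C22G, counted from the 5′ end of miR-34b-3p. miR-34a-5p and miR-34b-5p, set side by side from the 5′ end without gaps, were identical at 11 of 22 positions.

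The Mir34b hairpin is shown because 1 precursor gives both arms, whose assays, on different cards, differed in detection here. Capitals mark the 5p arm first and the 3p arm second.
Mir34b, chr9:51103562-51103645, - strand: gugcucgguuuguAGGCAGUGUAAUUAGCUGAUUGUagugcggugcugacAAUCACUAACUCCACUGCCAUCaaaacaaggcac

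The Mir34c hairpin lies on the same strand, with 451 bases between both hairpins. In the RefSeq annotation Mir34b and Mir34c fall within the spans of the protein-coding genes Hoatz and Btg4, and Mir34a overlaps no other gene.

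Of the 8 mice, 4 had sham surgery and 4 had bilateral renal ischemia by microvascular clamping and then reperfusion. Renal artery tissue of every mouse was digested with collagenase, and CD34+ cells lacking CD105 were taken by flow sorting. Strain, age and the length of ischemia or reperfusion are not stated in the labels used. The readout is the threshold cycle (Ct) of real-time PCR, which falls as the amount of RNA goes up, and a well counted as detected below Ct 35. The assays fall on 2 cards of 375 miRNA assays, with miR-34a, miR-34b-3p and miR-34c on the first and miR-34b-5p, miR-34b and miR-34c# on the second. Sham mice had 75 to 163 detected miRNA assays and ischemia/reperfusion mice 82 to 98. The reference Ct of the first card ran from 17.9 to 22.4 in sham mice and from 20.5 to 22.4 after ischemia/reperfusion. The endothelial miR-126-3p and miR-126-5p were detected in 8 of 8 samples, and 0 of 2 neural and 0 of 3 erythroid marker assays in any. Markers of other cells were also present. Each mouse had 3 to 5 of 6 leukocyte, 1 to 2 of 3 mesenchymal and 1 to 2 of 2 smooth muscle assays detected, and 0 to 2 of 5 striated muscle assays.

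**Figure D1:**
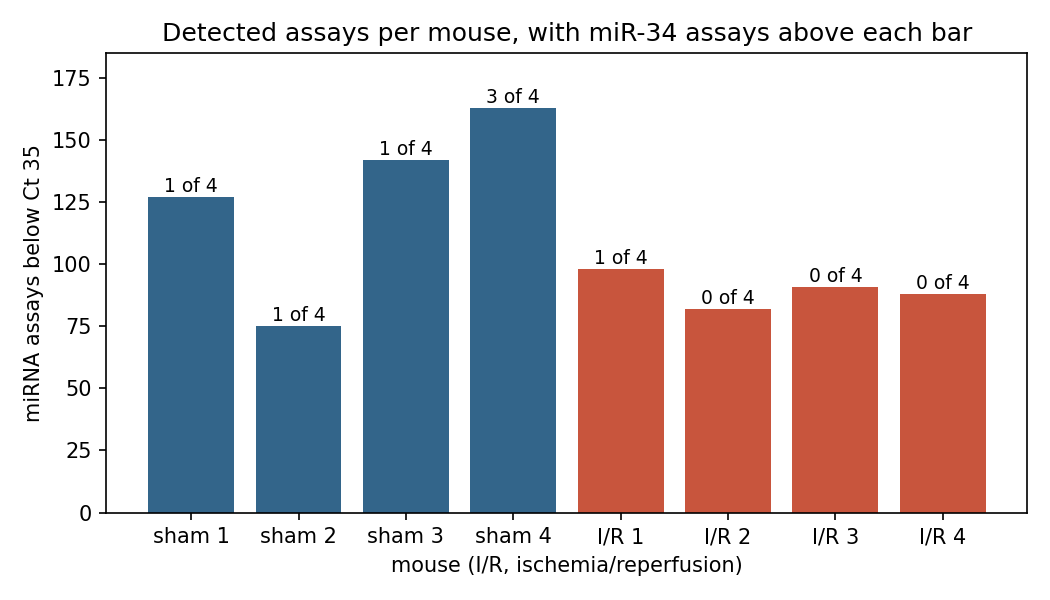
The bars give, for each mouse, the number of miRNA assays detected below Ct 35 out of 750, and the label above each bar the number of the 4 miR-34 members detected there. Sham mouse 4 had both the most detected assays, 163, and the most members, 3, and 3 of the 4 ischemia/reperfusion mice had none.

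miR-34b-3p, one arm of the Mir34b hairpin, was the member seen most often. Its Ct in sham mice 1 to 4 was 33.5, 30.7, 34.4 and 27.6. Among ischemia/reperfusion mice only mouse 1 gave a Ct, at 31.8, and mice 2, 3 and 4 gave none. The single ischemia/reperfusion value thus lay inside the sham range, which was 6.78 cycles wide. In bulk samples such as these, fewer cells that hold a miRNA and less of it per cell cannot be told apart.

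Relative to the reference of its card (minus delta Ct, a log2 scale on which higher means more RNA), miR-34b-3p was at -12.84, -8.21, -15.38 and -9.66 in sham mice 1 to 4. These 4 sham values averaged -11.52 ± 3.21 (SD), and ischemia/reperfusion mouse 1 was at -10.82. Sham mouse 2, with the highest reference Ct, had the highest relative level, sham mouse 4, with the lowest reference Ct, the second highest, and sham mouse 3 the lowest. The spread of 3.21 log2 units among sham mice is more than 4 times the difference between their mean and the ischemia/reperfusion value, 0.71.

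Detection of miR-34b-3p, in 4 of 4 against 1 of 4 mice, did not differ beyond what 8 mice can show (two-sided Fisher's exact p = 0.143, Benjamini-Hochberg adjusted p = 1). Among the 133 miRNA assays detected in 1 to 7 samples, 3 had this count of 4 sham and 1 ischemia/reperfusion mice, a share of 2.26%. The other two, named after their values were seen, were hsa-miR-421 and miR-140. Only miR-140, with a mean Ct of 31.7, was detected in exactly the same 5 mice as miR-34b-3p. Over these 133 assays 107 were detected in more sham than ischemia/reperfusion mice and 15 the other way, so an excess in sham mice was the common direction. By Fisher's exact test 0% of them passed an adjusted p of 0.05, and 0 had an unadjusted p under 0.05, because only detection in 4 of 4 against 0 of 4 mice can reach it.

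**Figure D2:**
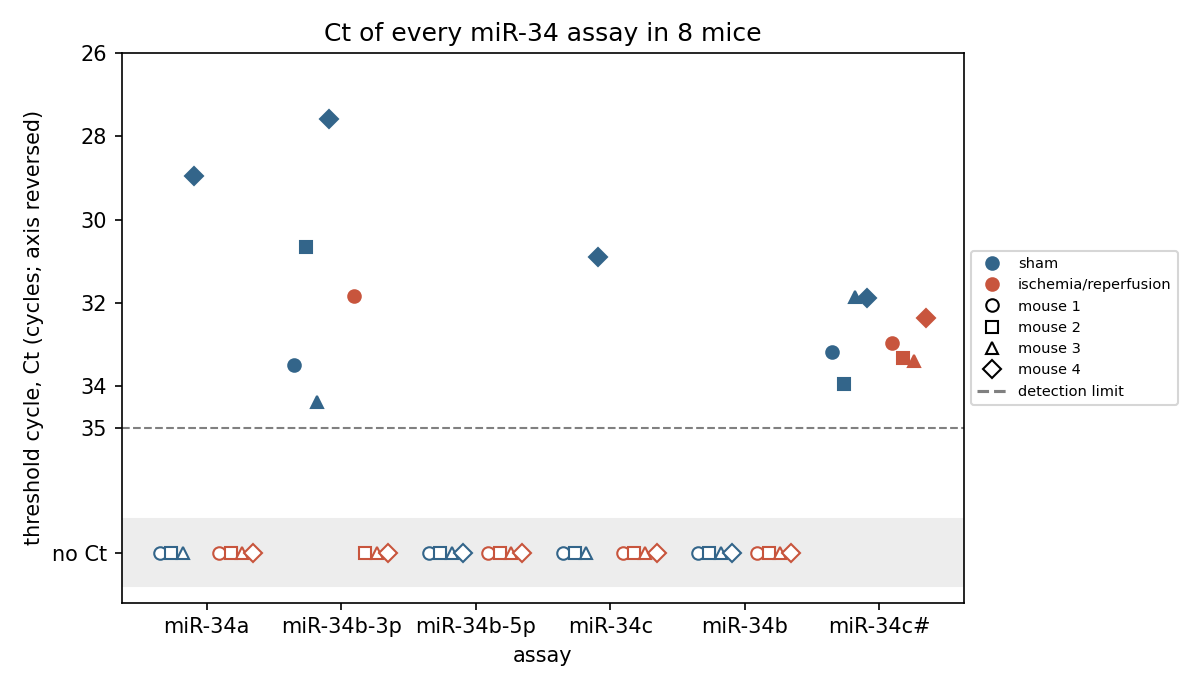
Each point is 1 mouse, the y axis is Ct in cycles (reversed, so that more RNA is higher), the dashed line is the detection limit of Ct 35, and open symbols in the grey band are wells with no Ct. miR-34b-3p had a Ct in all 4 sham mice and 1 ischemia/reperfusion mouse, miR-34a and miR-34c in sham mouse 4 alone, and miR-34c# between 31.9 and 33.9 in all 8.

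The authors' deposited table gives miR-34b-3p a fold of 1.63, ischemia/reperfusion over sham. That value is 0.71 on the log2 scale and compares 4 sham wells with 1 ischemia/reperfusion well, so it leaves out the 3 ischemia/reperfusion mice without a signal and has no replicate check. The miRNA entered no test here, because a test was run only for miRNAs detected in at least 3 mice of each group. With wells not detected set to Ct 35, the log2 difference turned to -1.29 ± 1.57 (SE, n = 4 per group), with a limma adjusted p of 0.637 over 114 miRNAs. With wells that had no Ct set to Ct 40 it was -5.04 ± 2.26 (limma adjusted p = 0.316 over 137 miRNAs). miR-34b-3p entered both fits through the sham group alone, which makes a lower value after ischemia/reperfusion likely by construction. With Ct 35 in such wells 73.7% of the 114 miRNAs were lower and 0.877%, 1 miRNA, passed the limma threshold. Without any imputed value, leaving out sham mouse 3 turned the difference to -0.58, and leaving out sham mouse 2 raised it to 1.81.

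**Figure D3:**
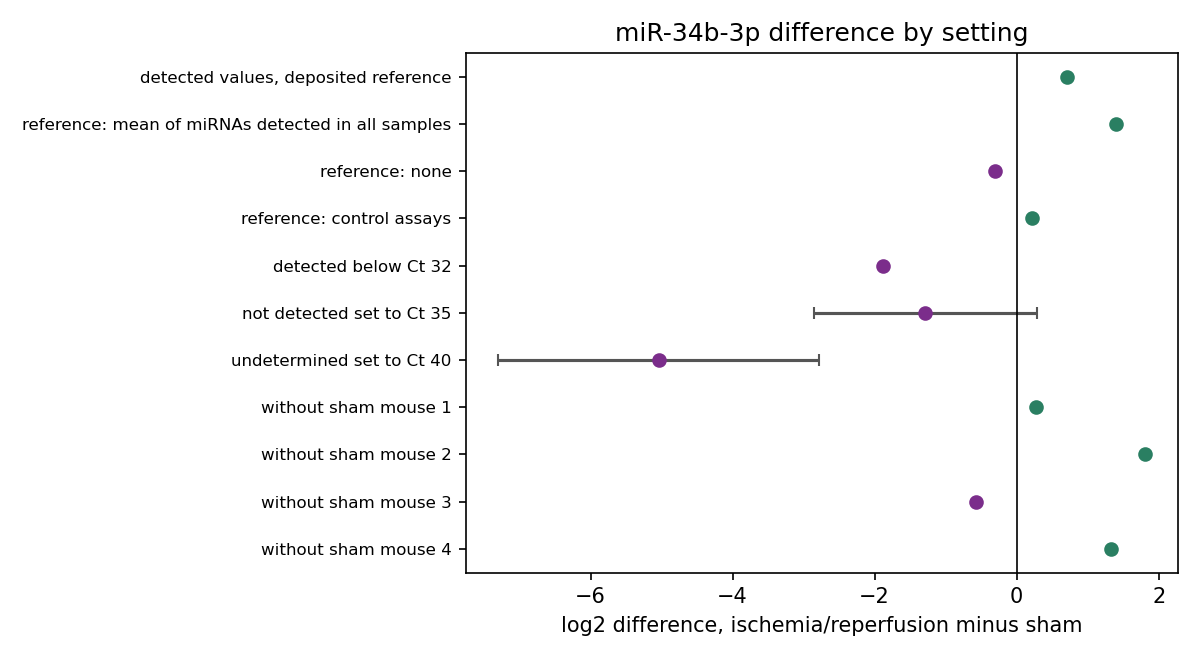
The x axis is the log2 difference of miR-34b-3p, ischemia/reperfusion minus sham, with a row for each setting; bars are standard errors, present only where a limma fit held the miRNA, and points without bars rest on 1 ischemia/reperfusion value. The value is 0.71 on the detected wells and lies below 0 with no reference, at a limit of Ct 32, with wells set to Ct 35 or 40, and without sham mouse 3.

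miR-34a, the member best known in endothelial cells, gave a Ct of 29.0 in sham mouse 4 and none in the other 7 mice. miR-34c gave a Ct of 30.9 in the same mouse and none elsewhere. Relative to the reference they were at -11.02 and -12.96 there. Sham mouse 4 had the lowest reference Ct of the first card, 17.9, and 21 assays were detected in it alone, against 0 to 5 assays in any other single mouse. Ranked by Ct, miR-34a was the second and miR-34c the sixth of these 21, whose median Ct was 32.2. Those detected with the lowest Ct beside them were miR-17 (Ct 25.9) and the tubule miRNA miR-192 (Ct 29.8), followed for miR-34a by miR-296-5p (Ct 30.6). No ratio between groups can be given for miR-34a or miR-34c, since no ischemia/reperfusion well had a value, and neither is listed with a fold in the authors' deposited table.

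miR-34b-5p gave no Ct in any of the 8 mice, although it comes from the same hairpin as miR-34b-3p. The assay named miR-34b, also on the second card, gave none either, but which arm it reads is not known. miR-34b-3p was read on the first card, and how well each of these assays amplifies was not tested. The miR-449 assays, 1 for miR-449a and 2 for miR-449b, were detected below Ct 35 in 0 of 8 mice, with a Ct of 36.9 for miR-449a in sham mouse 4. Of the listed miR-34 and miR-449 relatives (miR-34a, miR-34b-5p, miR-34c, miR-449a and miR-449b on the cards), 2 of 20 sham wells and 0 of 20 ischemia/reperfusion wells were detected. Of all 750 assays, 24.9% were detected in at least 1 mouse, against 3 of the 4 members.

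The arm outside the rule, miR-34c#, was detected in 8 of 8 mice. Sham mice 1 to 4 gave a Ct of 33.2, 33.9, 31.9 and 31.9, and ischemia/reperfusion mice 1 to 4 of 33.0, 33.3, 33.4 and 32.4. These values spanned 2.09 cycles, while the reference of the same card spanned 4.21 cycles. Of the 54 miRNAs detected in all 8 mice, whose Ct spans had a median of 5.23 cycles, miR-34c# had the seventh smallest span. Its Ct nevertheless moved with that reference, with a Pearson r of 0.84 over the 8 mice, over a narrower range.

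Relative to the reference, miR-34c# was at -11.72, -10.92, -11.64 and -13.07 in sham mice 1 to 4 and at -11.50, -10.70, -11.79 and -10.47 after ischemia/reperfusion. Each of the 4 ischemia/reperfusion mice was above the sham mean of -11.84 ± 0.90 (SD, n = 4), and 2 lay above every sham value. The groups overlapped, and the log2 difference of 0.72 ± 0.65 (SE, n = 4 per group) did not pass limma's test (unadjusted p = 0.295, adjusted p = 0.587 over 72 miRNAs). The difference was 0.31 without sham mouse 4 and 1.03 without sham mouse 2. Without any reference it was -0.30, the opposite direction. In the authors' deposited table its fold is 1.65. The miRNAs most like miR-34c# in relative level over the 8 mice were miR-2138 (Pearson r = 0.92), miR-463# (r = 0.89) and miR-378 (r = 0.83) among 53 candidates. All 3 were measured on the same card and so share its reference, whose Ct had r = 0.86 with the level of miR-34c# itself.

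**Figure D4:**
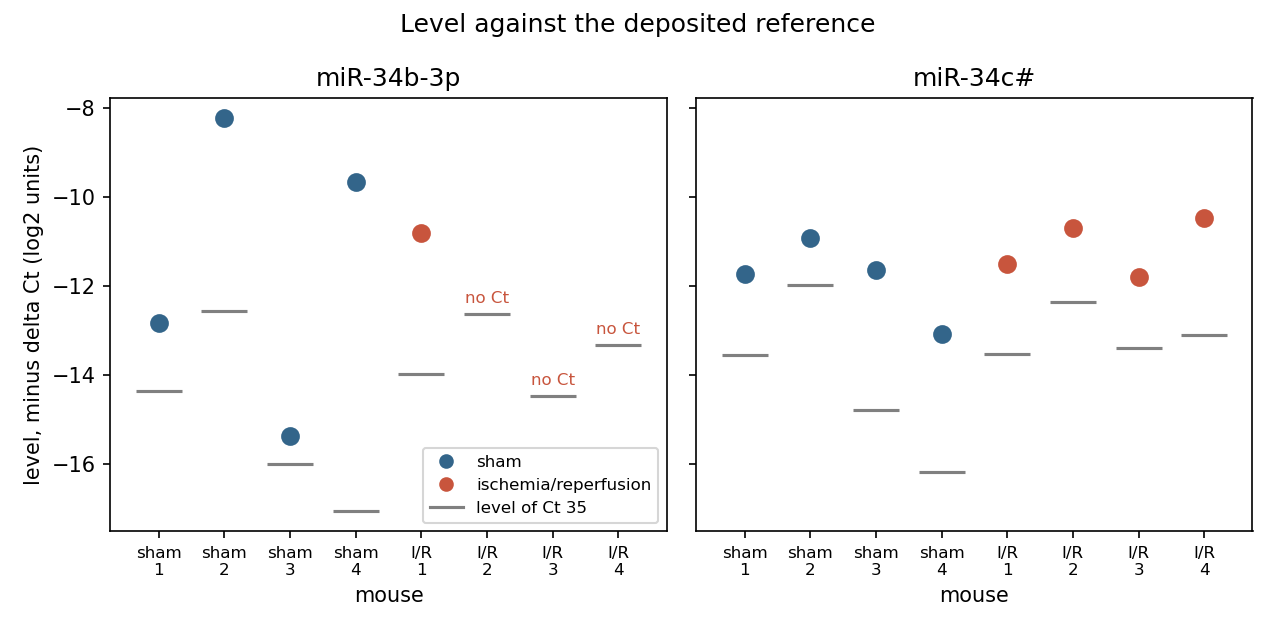
Points give the level relative to the deposited reference (minus delta Ct, log2 units) of miR-34b-3p and miR-34c# in each mouse, and grey lines the level that Ct 35 corresponds to in that mouse. Sham values of miR-34b-3p spread from -15.38 to -8.21, the lowest under the Ct 35 level of all 4 ischemia/reperfusion mice, while miR-34c# stayed between -13.07 and -10.47.

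How low a level counted as detected differed between mice, because Ct 35 lies closer to the reference where the reference Ct is high. On the first card Ct 35 corresponded to -17.06 in sham mouse 4 and -12.56 in sham mouse 2, and to between -14.48 and -12.63 after ischemia/reperfusion. The miR-34a level of sham mouse 4 would have given a Ct between 31.5 and 33.4 in the 4 ischemia/reperfusion mice, below the limit in 4 of 4. In sham mice 1 to 3, which gave no Ct either, it would have been at most 33.5, so this level would have been below Ct 35 in all 7 mice without a signal. The miR-34c level of that mouse would have been below Ct 35 in 3 of these 4 mice, and at 35.3 in mouse 2. For miR-34b-3p, the levels of sham mice 2 and 4 would have been seen in 3 of the 3 ischemia/reperfusion mice without a signal, that of sham mouse 1 in 2 of them and that of sham mouse 3 in 0. A loss of the lowest sham level was therefore not detectable at this depth. These projections assume fully efficient PCR and that the reference stands for the input.

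Other miRNAs of the p53 pathway were few among those tested. For 12 miRNAs listed as induced or processed under p53, 1 assay each was counted. Of these miRNAs, 7 were detected in at least 1 mouse and 2 were tested. Detected wells were 17 of 48 in sham and 8 of 48 in ischemia/reperfusion mice, beside 16.9% and 12.0% of all miRNA assays. miR-145, a smooth muscle miRNA whose processing p53 promotes, was at -8.43, -11.66, -9.65 and -8.81 in sham mice 1 to 4 and at -11.85, -10.51, -11.94 and -12.62 after ischemia/reperfusion. Its log2 difference was -2.09 ± 0.84 (SE, n = 4 per group; limma adjusted p = 0.278), with sham mouse 2 inside the ischemia/reperfusion range. The tested mesenchymal markers had differences of the same sign, -2.65 ± 0.92 for miR-199a-3p (SE, n = 4 per group; limma adjusted p = 0.228) and -3.95 ± 1.17 for mmu-miR-214 (SE, 3 sham and 4 ischemia/reperfusion values; limma adjusted p = 0.228), and their part in the value of miR-145 was not tested. miR-16, which restrains cyclins and Bcl2, differed by -1.60 ± 0.82 log2 units (SE, n = 4 each; limma adjusted p = 0.401) and overlapped between groups.

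By the 1 assay counted for each name, the other 5 detected miRNAs of that list were found in sham mice only, and none in more than 2. A second miR-143 assay, hsa-miR-143, was not counted. It was detected in 2 sham mice and 1 ischemia/reperfusion mouse. An excess in sham mice was also the common direction over all assays, though not that of each. Of the 133 detected in 1 to 7 mice, 107 were detected in more sham than ischemia/reperfusion mice and 15 the other way. Detection in 1 sham mouse and no ischemia/reperfusion mouse was found for 28 of them, and the reverse for 4. miR-192 had a Ct of 29.8 in sham mouse 4, and miR-194, its partner in the p53-induced tubule cluster, 20.5 and 23.7 in sham mice 3 and 4. By its mouse assay miR-143, encoded beside miR-145, gave Ct 33.5 and 29.6 in sham mice 3 and 4. miR-23b gave a signal in the same mice at Ct 28.8 and 28.1. miR-15a, the cluster partner of miR-16, gave Ct 31.7 and 33.8 in sham mice 2 and 4. With 1 assay counted per name, sham mouse 4 held 7 of the 12 listed miRNAs and sham mice 1 to 3 held 2, 3 and 5. Each ischemia/reperfusion mouse held 2 by the same count. Markers of tubule and other epithelium numbered 2, 0, 3 and 4 of 11 assays for sham mice 1 to 4, and 0, 2, 2 and 0 for ischemia/reperfusion mice 1 to 4. Their part in the detection of the miR-34 members was not tested.

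Of 12 miRNAs listed as targeting p53 or its regulators, 10 had an assay, 8 were detected and 5 were tested. The 4 with the smallest p were miR-125a-5p, at -1.13 ± 0.70 (SE, 4 sham and 3 ischemia/reperfusion values), and miR-25, miR-29c and miR-29a, at 1.14 ± 0.76, -1.07 ± 0.87 and -0.36 ± 0.68 (SE, n = 4 per group). The fifth, miR-125b-5p, which represses p53 itself and was named after its values were seen, was at 0.24 ± 0.77 (SE, n = 4 per group). Their limma adjusted p lay between 0.510 and 0.835. Counted by direction, 2 of 2 tested miRNAs of the first list and 3 of 5 of the second had lower means after ischemia/reperfusion, beside 68.1% of all 72 tested. The list medians were -1.85 and -0.36, and the median of all 72 was -0.80. With the average of the 54 miRNAs found in every mouse as reference, the median of the second list turned to 0.30, with 2 of 5 lower, and that of all 72 was -0.31.

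**Figure D5:**
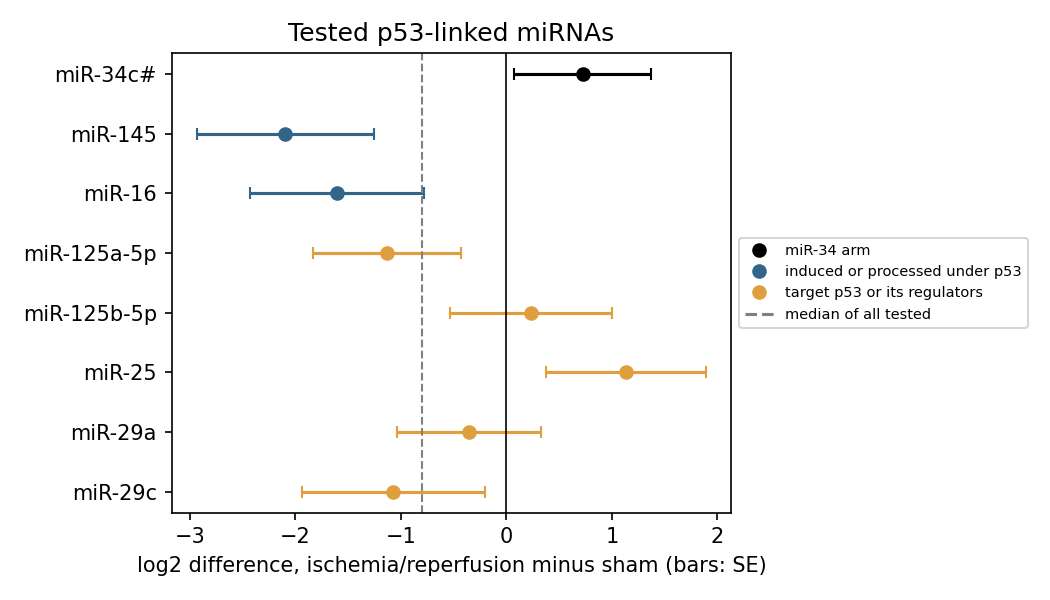
Points are log2 differences, ischemia/reperfusion minus sham, of miR-34c# and the 7 tested p53-linked miRNAs, bars are standard errors from limma, and the dashed line is the median of all 72 tested miRNAs, -0.80. miR-145 and miR-16 lie below that median and miR-34c#, miR-125b-5p and miR-25 above 0, none past the adjusted threshold.

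Among the 72 tested miRNAs 0% passed an adjusted p of 0.05 in limma (Benjamini-Hochberg). The count at an unadjusted p under 0.05 was 10. The smallest adjusted p, that of mmu-miR-214, was 0.228, while the second miR-214 assay, hsa-miR-214, had a limma adjusted p of 0.605. The endothelial miR-126-3p differed by -1.59 ± 0.57 (SE, n = 4 per group; limma adjusted p = 0.228), and miR-126-5p by 0.11 ± 0.60 (adjusted p = 0.892). The members themselves had 0 of 4 assays in this test, so it says nothing on a change of the miR-34 family.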

How the data were processed

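Real-time PCR values of sorted CD34+/CD105- renal artery cells from 4 sham and 4 ischemia/reperfusion mice were used, 1 sample per numbered mouse. Per the labels' protocols, RNA came from a mirVana kit and was measured with FAM probes on a 7900HT Fast system. The Ct software, threshold and reference RNA are not stated there. The authors deposited Ct values, delta Ct values (a log2 scale) and a fold change. For miR-34b-3p and miR-34c# that fold matched the log2 difference over detected wells, put back on the ratio scale. Each deposited delta Ct was the Ct minus a single value per sample and card, within 7.11e-15 cycles. In 13 wells a delta Ct stood without a Ct, and these were treated as missing.

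Values at or over Ct 35 were missing, repeated wells were averaged, and the 7 control assays were left out. miRNAs detected in at least 3 mice per group were tested with limma 3.58.1 in R 4.3.3, with two-sided p adjusted over all of them by Benjamini-Hochberg. Fisher's exact test was used for detection. The fit was tested on simulated data. Precision rests on the spread between 4 mice per group, which may in part be technical.

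The members and lists were chosen with earlier results of these data known. Named with values were every miR-34 and miR-449 assay, the detected or 4 lowest-p miRNAs of each p53-linked list, miR-126-3p and the miRNA with the smallest p. For likeness, the 3 assays of highest Pearson r were named for assays detected in at least 6 mice, otherwise those with the same detection pattern. Alternatives tried were a different reference, another detection limit, imputed Ct values, filters and tests, mouse number as a block, and leaving out each mouse.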

Additional observations from a re-analysis of the deposited data

Results flagged for a closer look

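In 1 of 22 sets of 4 values examined, each 1 assay in 1 group, a mouse stood far from the others. For miR-16 after ischemia/reperfusion, mouse 4 was at -12.06 on the minus delta Ct scale, while mice 1 to 3 were between -9.24 and -8.86. Its gap to the nearest mouse was 0.882 of the whole range of the group. Chance alone sets about 1 in 20 such groups apart.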

How the results depend on the processing

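The log2 difference of miR-34b-3p, 0.71 on detected wells, was -0.31 with no reference, -1.88 with detection below Ct 32, -1.29 with wells not detected at Ct 35 and -5.04 with undetermined wells at Ct 40. It stayed positive at 1.40 against the average of miRNAs found in every mouse and at 0.21 against the control assays. It ran from -0.58 to 1.81 when 1 mouse was left out, and could not be computed without ischemia/reperfusion mouse 1. The value at Ct 35, in checks chosen after seeing the data, ran from -2.57 to -0.19 when 1 mouse was left out. With mouse number as a replicate block it stayed at -1.29 (limma adjusted p = 0.625). miR-34b-3p entered these fits through the sham group alone, so a value below 0 was likely by construction. The log2 difference of miR-34c# was -0.30 with no reference. Detected member wells numbered 10 in sham and 5 in ischemia/reperfusion mice, of 24 each, with all miR-34 assays counted. With 1 mouse left out they numbered 3 to 5 in sham, the lowest without sham mouse 4, and 0 to 1 after ischemia/reperfusion, the lowest without mouse 1. The limma count of 0 became 1 with any Ct taken as detected and 1 with Ct 35 for wells not detected. It ran from 0 to 1 when 1 mouse was left out, with 1 without sham mouse 1 or 2, and no miR-34 assay was among these calls. The replicate block gave 0. The numbers were not taken as pairs, because the labels do not say that a number marks a pair. Same-numbered mice of both groups deviated from their group means with correlations of -0.38, -0.15, 0.020 and -0.25 over 54 miRNAs. These values cannot decide whether the mice were paired. The list medians without reference were -3.24 and -1.75, beside -1.93 for all 72 tested miRNAs. The second list median turned to 0.30 with the average of miRNAs found in every mouse as reference, beside -0.31 for all 72. The detection test gave 0 under each limit and without each mouse, where its smallest possible p makes an adjusted call nearly out of reach. Assays with an unadjusted p under 0.05 went from 0 to 9 without sham mouse 2, 2 without ischemia/reperfusion mouse 1, 2 without mouse 3 and 1 below Ct 32. Only without ischemia/reperfusion mouse 1, the sole mouse of that group with its signal, was miR-34b-3p among them. Depth limits what can be said of the members under the limit of Ct 35, which leaves out levels that sham mouse 3 or 4 could show.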
